A study of Mus musculus with 6 samples.

Results

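The 10 genes described here encode acute-phase and antimicrobial proteins: the lipopolysaccharide-binding proteins Lbp and Cd14, the siderophore-binding lipocalin Lcn2, the serum amyloids Saa1, Saa2 and Saa3, the orosomucoids Orm1 and Orm2, haptoglobin (Hp) and the fibrinogen gamma chain (Fgg). They were taken by gene symbol from the raw count table, where all 10 had a row among 55487 genes. Acute-phase proteins are secreted, mainly by the liver, when interleukin-6 and interleukin-1 signal infection or tissue damage. Several are also made by epithelia, the mammary gland included, and milk and mammary secretions carry some of them as part of local defence. Lbp passes bacterial lipopolysaccharide (LPS) to Cd14, which hands it to the receptor complex of Tlr4 and Ly96, and Lcn2 deprives bacteria of iron by binding their siderophores.

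RNA-seq was performed on mammary epithelial cells (MECs) of 3 wild-type (WT) and 3 IL-21isoTg mice, with 1 library per mouse. All 6 were virgin female BALB/c mice of 10 weeks, at estrous stages that were left to chance. IL-21isoTg mice carry a membrane-bound isoform of interleukin-21 as a transgene expressed in T cells, and which promoter drives it is not given in the sources used here. MECs were what remained after magnetic removal of CD45+, CD31+ and CD140a+ cells, so they were enriched by depletion and not sorted for an epithelial marker. The comparison asks how the RNA of the epithelial fraction differed between the genotypes at 10 weeks.

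Before the results, 3 mice stood apart in ways that touch them. Library totals ran from 15902886 to 25719244 counts, the lowest being IL-21isoTg mouse 3. In that mouse 15 salivary gland markers took 37.4% of all counts, against 4.62% to 21.2% in the other 5. WT mouse 1 lay about as far from the centre as that mouse on the first principal components of all genes tested (33.8% and 29.9% of the variance), and was the lowest WT mouse for Cd14, Lcn2, Hp and Fgg. WT mouse 3 had 37 Il21 counts where the other WT mice had 0 and the IL-21isoTg mice 131 to 795. The epithelial markers (Epcam, keratins and Cdh1) were present in every mouse, with a summed level of 4933 to 7419 CPM (counts scaled to library size by the trimmed mean of M-values, TMM). The 8 milk protein markers summed to 522 to 1730 CPM in WT and 8802 to 20330 CPM in IL-21isoTg mice, and each of the 8 was higher in all IL-21isoTg mice than in any WT mouse. Summed fibroblast markers were 1984 to 3533 CPM in WT and 4406 to 5085 CPM in IL-21isoTg mice, and adipocyte markers were highest in IL-21isoTg mouse 1 at 347 CPM, against 28.4 to 120 CPM elsewhere. T cell markers summed to 5.47 to 7.77 CPM in WT and 7.77 to 10.1 CPM in IL-21isoTg mice. In such bulk samples, more cells of a type and more RNA per cell cannot be told apart, and the part of these markers in the results below was not tested.

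**Figure D1:**
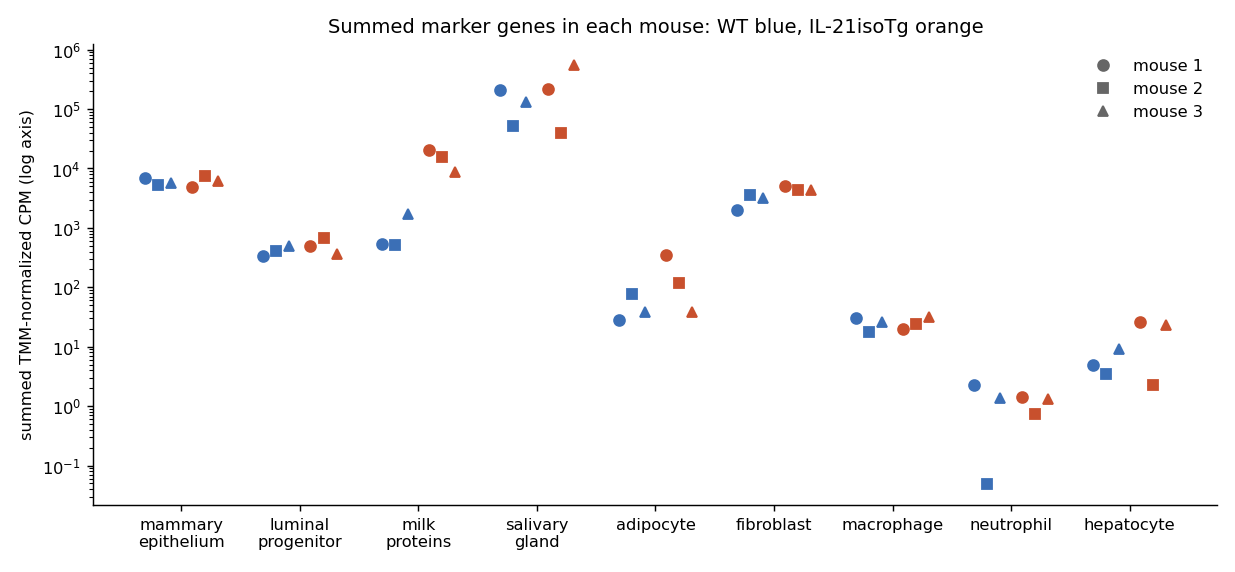
Summed TMM-normalized CPM (log axis) of 9 marker gene lists in each of the 3 WT (blue) and 3 IL-21isoTg (orange) mice, 1 point per mouse. The milk protein sums of the IL-21isoTg mice (8802 to 20330 CPM) all lie above those of the WT mice (522 to 1730 CPM), whereas the sums of epithelial, salivary gland, macrophage and neutrophil markers overlap between genotypes.

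The serum amyloid and orosomucoid genes sit in families whose copies resemble each other, so their sequences are shown first. Saa3, Saa4, a pseudogene, Saa1 and Saa2 lie within 42316 bases of chromosome 7, and Orm1, a pseudogene, Orm3 and Orm2 within 21319 bases of chromosome 4 (GENCODE M21 on GRCm38, the build that the labels name as mm10). The coding transcripts of Saa1 and Saa2 were 94.4% identical over 606 aligned bases, and those of Orm1 and Orm2 91% identical over 775. No 150-base stretch, the read length, was shared by either pair of coding transcripts, although 54 such stretches were shared by Saa1 and Saa2 once their other annotated transcripts were counted. How the counting treated reads that match more than 1 gene is not given in the sources used here, so the split between Saa1 and Saa2 is uncertain.

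The 250 bases upstream of the start are given for the clustered genes that RefSeq (GRCm38.p6) supplied, on the strand of the gene and read 5′ to 3′. They lie at chr7:46742981-46743230 on the minus strand for Saa1, chr7:46751583-46751832 on the plus strand for Saa2, chr7:46715677-46715926 on the minus strand for Saa3 and chr4:63362199-63362448 on the plus strand for Orm2. Capitals mark the letters TTNNGCAA, searched on both strands (TTGCNNAA on the other), which describe the site bound by C/EBP transcription factors, regulators of acute-phase genes.
Saa1: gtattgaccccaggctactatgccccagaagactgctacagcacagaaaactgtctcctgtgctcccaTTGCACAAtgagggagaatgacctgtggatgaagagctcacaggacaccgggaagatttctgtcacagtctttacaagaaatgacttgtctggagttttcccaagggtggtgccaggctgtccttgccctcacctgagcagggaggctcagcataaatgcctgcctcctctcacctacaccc
Saa2: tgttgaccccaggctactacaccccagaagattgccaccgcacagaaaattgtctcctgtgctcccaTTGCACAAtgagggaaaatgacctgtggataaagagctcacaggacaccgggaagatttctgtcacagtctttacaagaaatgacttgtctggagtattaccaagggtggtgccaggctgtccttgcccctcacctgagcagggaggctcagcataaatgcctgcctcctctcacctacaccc
Saa3: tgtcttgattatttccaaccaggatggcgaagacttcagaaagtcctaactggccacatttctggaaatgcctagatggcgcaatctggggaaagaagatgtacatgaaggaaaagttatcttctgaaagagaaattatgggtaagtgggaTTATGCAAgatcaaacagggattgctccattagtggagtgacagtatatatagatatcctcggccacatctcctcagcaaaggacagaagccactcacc
Orm2: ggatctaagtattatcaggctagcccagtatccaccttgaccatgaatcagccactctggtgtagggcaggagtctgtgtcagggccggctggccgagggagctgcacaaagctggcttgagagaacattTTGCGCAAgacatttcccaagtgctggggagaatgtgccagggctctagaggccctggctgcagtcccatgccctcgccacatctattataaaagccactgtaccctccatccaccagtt
The upstream stretches of Saa1 and Saa2 were 95.6% identical over 249 aligned bases and held the same 8 letters at nearly the same place, with first bases at −182 and −183 from the start. Saa3 held its match at −99 and Orm2 at −120, the latter being its own reverse complement and therefore counted on both strands. RefSeq windows were at hand for 6 of the 10 genes, and 5 of these held a match, the one in Lcn2 at −216. Fgg held none, and among 32851 windows of the same length 9.56% held one. The RefSeq start of Lcn2 lies 513 bases from its GENCODE gene start, so its window falls inside the gene as annotated there. Saa1 and Saa2 have nearly the same window, so the 5 matches are not separate cases. The STAT letters TTCNNNGAA and the NF-kB letters (GGG, any 3 bases, then TTCC) were found in 0 of the 6, against 7.02% and 4.65% of all windows. Such matches describe the letters only. Looser forms of the STAT and NF-kB sites were not searched, so 0 matches does not mean that such sites are absent.

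The levels of the 10 genes ranged widely, and Lcn2, Hp, Cd14 and Lbp together supplied 93% to 98.1% of their counts in each mouse. Per kilobase of annotated exon, the mean WT level was 186 CPM per kb for Lcn2, 152 for Hp and 103 for Cd14, followed by 25 for Lbp and 12.5 for Fgg. Saa1 (1.2), Saa2 (0.416), Orm1 (0.182), Saa3 (0.161) and Orm2 (0) formed the low end in WT mice. In WT mice the range of Hp overlapped those of Lcn2 and Cd14, and the low ranges of Saa1, Saa2, Orm1 and Saa3 overlapped, whereas Cd14, Lbp, Fgg and Saa1 were separated from one another in that order. In IL-21isoTg mice Lcn2 was again first at 285 CPM per kb, then Cd14 at 150, Hp at 87.5 and Lbp at 52.2. Saa1 (17.3) and Saa2 (11.6) stood beside Fgg (7.43) there, with overlapping ranges, ahead of Orm1 (2.97), Saa3 (0.67) and Orm2 (0.418). The annotated exons of Saa1 add up to 2478 bases because 1 transcript retains introns, against 609 bases of its coding transcript. Those of Saa2 add up to 2518 bases, against 652 of its coding transcript. The levels per kb of both, and their place beside Fgg, therefore depend on which length is used. The other genes were also scaled by exons pooled over all annotated transcripts, such as 6 for Lcn2, 5 for Lbp and 3 for Saa3. Their order was not checked with another length.

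**Figure D2:**
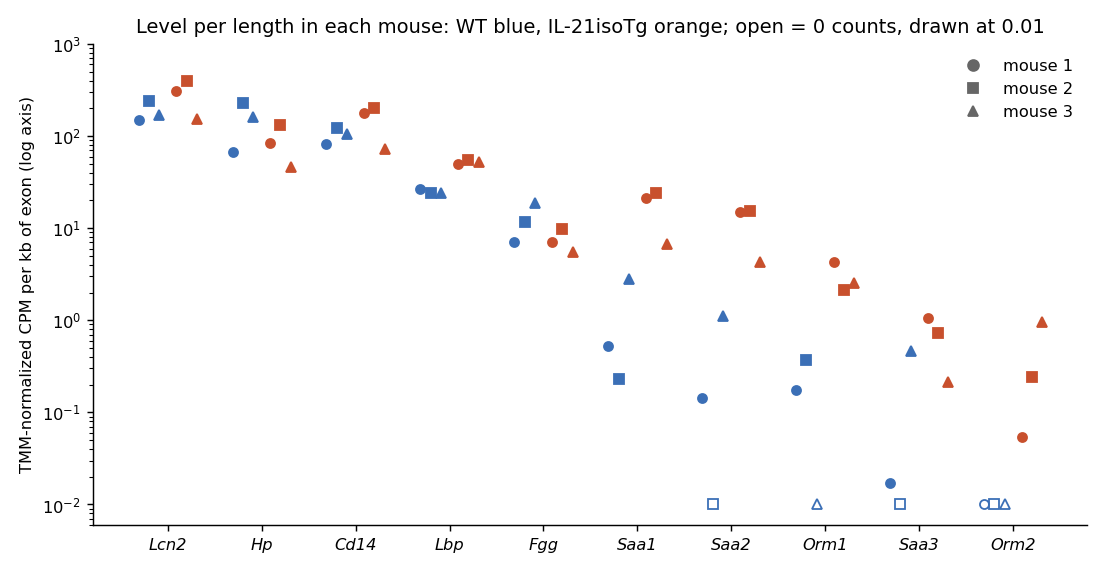
TMM-normalized CPM per kb of annotated exon (log axis) of the 10 genes in each mouse, ordered by the WT mean, with WT in blue, IL-21isoTg in orange and open symbols at the axis floor for 0 counts. Lcn2, Hp and Cd14 head both genotypes, while Saa1 and Saa2 lie at 1.2 and 0.416 CPM per kb in WT and at 17.3 and 11.6 in IL-21isoTg mice on average.

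The 10 genes were chosen by name with their read counts in WT and IL-21isoTg mice already known, so their differences are given as a description and carry no test. Of the 9 genes that passed the filter on low counts, Lbp, Saa1, Saa2 and Orm1 were higher in every IL-21isoTg mouse than in any WT mouse, and 0 were lower in all of them. Across all 17165 genes tested, 5.54% were higher and 6.54% lower without overlap (12.1% in all). In edgeR's quasi-likelihood test the adjusted p was under 0.05 for 0 of the 9, as for 0 of all genes (0%), the smallest being 0.126. At an unadjusted p under 0.05, 4 of the 9 passed, all higher, against 999 genes or 5.82% of those tested (3.19% higher). DESeq2 called 81 genes (0.472%, and 0.419% higher), Lbp and Orm1 among the higher ones, and limma-voom called 0 of all genes. Saa2, Saa3 and Orm1 reached the filter only with the counts of the IL-21isoTg mice, where they were high, so nothing is read from these counts of genes. The log2 fold change of IL-21isoTg over WT was positive for 7 and negative for 2 of the 9. Its median was 1.06 beside −0.019 over all genes tested, but that median includes Saa2, Saa3 and Orm1. A stricter filter, under which no mouse may fall below 10 counts, drops Saa2, Saa3 and Orm1. The median was then 0.58 beside −0.018 over all genes tested, so nothing is read from the 1.06 either.

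**Figure D3:**
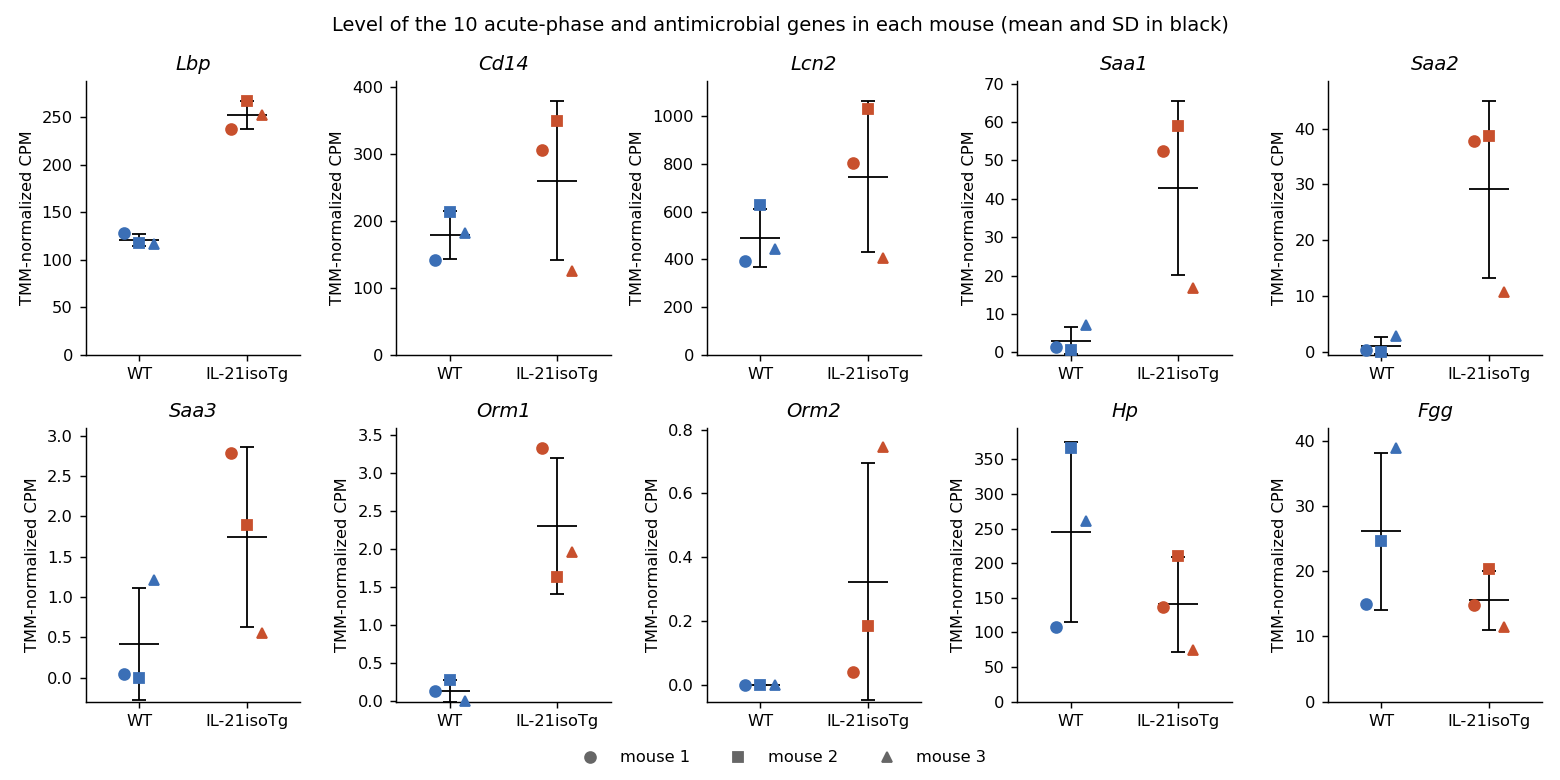
TMM-normalized CPM of each of the 10 genes in the 3 WT (blue) and 3 IL-21isoTg (orange) mice, 1 symbol per mouse on a linear axis, with the group mean and SD in black. The groups are apart for Lbp (117 to 128 against 238 to 267 CPM), Saa1, Saa2 and Orm1, and overlap for Cd14, Lcn2, Saa3, Hp and Fgg, while Orm2 rests on 1 to 8 counts per IL-21isoTg mouse and 0 in WT.

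Among the recognition proteins, Lbp (ENSMUSG00000016024, chr2:158306493-158332852, plus strand, up to 15 exons) was the gene with the tightest groups. Its level was 128, 117 and 117 CPM in the WT mice and 238, 267 and 252 CPM in the IL-21isoTg mice. The mice of a genotype lay close together and the genotypes did not overlap. The mean was 121 ± 6.59 CPM in WT and 252 ± 14.6 CPM in IL-21isoTg mice (SD, n = 3 each), a log2 fold change of 1.06 ± 0.15 (SE) or 2.09-fold. Leaving out any mouse kept the log2 fold change between 1.02 and 1.12. Relative to the summed epithelial markers, a scaling chosen after seeing the data, Lbp stood at 1.82%, 2.2% and 2.07% of that sum in WT and at 4.81%, 3.59% and 4.13% in IL-21isoTg mice, again without overlap.

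Cd14, the co-receptor that takes LPS from Lbp (ENSMUSG00000051439, chr18:36725067-36726798, minus strand, up to 2 exons), measured 141, 213 and 182 CPM in WT mice. In IL-21isoTg mice it measured 305, 349 and 125 CPM. IL-21isoTg mice 1 and 2 lay above every WT mouse and IL-21isoTg mouse 3 below every WT mouse, so the groups overlapped. Its log2 fold change was 0.54 ± 0.36 (SE), with 0.88 without IL-21isoTg mouse 3 and 0.27 without IL-21isoTg mouse 2. The ratio of Lbp to Cd14 counts was 0.55 to 0.912 in the WT mice, 0.777 and 0.764 in IL-21isoTg mice 1 and 2 and 2.02 in IL-21isoTg mouse 3. Cd14 is also a monocyte and macrophage gene. The 10 macrophage markers summed to 17.4 to 30.3 CPM in WT and 19.7 to 31.9 CPM in IL-21isoTg mice. Of the 8 tested, 2 were higher in all IL-21isoTg mice, beside 5.54% of all genes tested. These were C1qa (9 to 37 counts per mouse) and C1qc (3 to 19 counts). The median log2 fold change of the 8 was −0.01, and nothing is read from the count of 2. The 3 luminal progenitor markers summed to 330, 409 and 488 CPM in WT and 488, 670 and 366 CPM in IL-21isoTg mice. The part of either list in the Cd14 level was not tested.

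Lcn2 (ENSMUSG00000026822, chr2:32384633-32388252, minus strand, up to 7 exons) supplied 42.1% to 52.1% of the counts of the 10 genes in every mouse. It measured 395, 626 and 443 CPM in WT and 803, 1031 and 405 CPM in IL-21isoTg mice. IL-21isoTg mice 1 and 2 were above all WT mice, as for Cd14, and IL-21isoTg mouse 3 fell within the WT range. The mean was 488 ± 122 CPM in WT and 746 ± 317 CPM in IL-21isoTg mice (SD, n = 3 each), a log2 fold change of 0.61 ± 0.35 (SE) that became 0.91 without IL-21isoTg mouse 3 and 0.31 without IL-21isoTg mouse 2. Neutrophils store Lcn2 protein in their granules. The 10 neutrophil markers summed to 0.048 to 2.25 CPM in WT and 0.743 to 1.45 CPM in IL-21isoTg mice, and only S100a8 among them had enough counts to be tested. The part of these markers, or of the luminal progenitor markers given for Cd14, in the Lcn2 level was not tested.

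The serum amyloids, lipoprotein-bound proteins that bind retinol and bacterial products, had larger fitted log2 fold changes than Lbp and varied more between mice of a genotype, Saa3 with overlapping groups. Saa1 (ENSMUSG00000074115, chr7:46740497-46742980, minus strand, up to 4 exons) had 29, 12 and 156 counts in WT and 1264, 1588 and 181 counts in IL-21isoTg mice. This corresponds to 1.31, 0.576 and 7.01 CPM against 52.5, 59.0 and 16.9 CPM. Every IL-21isoTg mouse was above every WT mouse, although WT mouse 3 and IL-21isoTg mouse 3 came within a few-fold of each other. The log2 fold change was 3.85 ± 0.89 (SE), from 3.37 to 5.50 when a mouse was left out, the highest being without WT mouse 3.

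Saa2 (ENSMUSG00000057465, chr7:46751790-46754313, plus strand, up to 4 exons) had 8, 0 and 62 counts in WT and 912, 1040 and 116 counts in IL-21isoTg mice. The 0 in WT mouse 2 allows a level of up to 0.144 CPM. The order of the 6 mice was that of Saa1, again with no overlap. In CPM the level was 0.36, 0 and 2.78 against 37.8, 38.6 and 10.8, a log2 fold change of 4.78 ± 1.11 (SE). Without WT mouse 3 it was 7.26, and it was 4.21 at the lowest. The ratio of Saa2 to Saa1 counts was 0.641 to 0.722 in IL-21isoTg mice, and 0.276, 0 and 0.397 in the WT mice.

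Saa3, an isoform made largely outside the liver (ENSMUSG00000040026, chr7:46711998-46715700, minus strand, up to 4 exons), was scarcer. It had 1, 0 and 27 counts in WT and 67, 51 and 6 counts in IL-21isoTg mice, or 0.045, 0 and 1.21 CPM against 2.78, 1.9 and 0.559 CPM. WT mouse 3 exceeded IL-21isoTg mouse 3, so the groups overlapped. Its log2 fold change of 2.06 ± 1.2 (SE) became 5.94 without WT mouse 3 and 1.49 without WT mouse 2. WT mouse 3 was thus the highest WT mouse for all 3 serum amyloids, and it was also the WT mouse with Il21 counts and with the most milk protein RNA (1730 CPM). In the same cluster, Saa4 and the pseudogene had 0 counts in all 6 mice. The 3 serum amyloids made up 0.0427% to 1.05% of the counts of the 10 genes in WT and 3.14% to 5.84% in IL-21isoTg mice.

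The orosomucoids are acidic glycoproteins that carry drugs and lipids in plasma and dampen immune cell activity. Orm1 (ENSMUSG00000039196, chr4:63344560-63348163, plus strand, up to 6 exons) had 3, 6 and 0 counts in WT and 80, 44 and 21 counts in IL-21isoTg mice. Its level was 0.135, 0.288 and 0 CPM against 3.32, 1.64 and 1.96 CPM. The groups did not overlap, IL-21isoTg mouse 1 was highest, and the WT values were at the level that a few counts give. The log2 fold change was 4.0 ± 0.87 (SE), and 3.42 to 4.98 with a mouse left out. Summed adipocyte markers were 28.4, 76.1 and 38.5 CPM in the WT mice and 347, 120 and 37.7 CPM in IL-21isoTg mice 1, 2 and 3. Their part in the Orm1 level was not tested.

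Orm2 (ENSMUSG00000061540, chr4:63362449-63365878, plus strand, up to 6 exons) had 0 counts in each WT mouse and 1, 5 and 8 in the IL-21isoTg mice, too few to enter the test. Pooled over mice this is 0.227 CPM, which is 4.94 times a limit of 0.0459 CPM set by 3 counts over the WT group. Such limits cover counting error in WT only. The pooled IL-21isoTg value carries its own error and no lower limit, so 4.94 is not a lower bound of the fold. IL-21isoTg mouse 1 alone, at 0.0415 CPM, lay below the pooled WT limit. Orm1 and Orm2 are the only members of the cluster with counts in every IL-21isoTg mouse, as Orm3, which was looked up after the values were seen, had 5, 1 and 0 counts there and 0 in WT.

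Hp and Fgg, which bind free hemoglobin and form part of fibrinogen, had lower means in IL-21isoTg mice, with groups that overlapped. Hp (ENSMUSG00000031722, chr8:109575128-109579172, minus strand, up to 5 exons) measured 108, 366 and 261 CPM in WT and 137, 211 and 73.9 CPM in IL-21isoTg mice. The WT mice alone spanned a 3.38-fold range that contained IL-21isoTg mice 1 and 2, and IL-21isoTg mouse 3 was the lowest of the 6. On the log2 scale the difference was −0.80 ± 0.49 (SE), ranging from −1.22 without IL-21isoTg mouse 2 to −0.39 without WT mouse 2. The ratio of Hp to Lbp counts was 0.843, 3.12 and 2.24 in WT and 0.575, 0.791 and 0.293 in IL-21isoTg mice. It was lower in each IL-21isoTg mouse than in any WT mouse, the nearest values being 0.791 and 0.843. Its denominator Lbp was itself higher without overlap, so the ratio says nothing about Hp alone.

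Fgg (ENSMUSG00000033860, chr3:83007724-83015049, plus strand, up to 10 exons) measured 14.9, 24.6 and 38.8 CPM in WT and 14.9, 20.4 and 11.5 CPM in IL-21isoTg mice. WT mouse 3 was the highest and IL-21isoTg mouse 3 the lowest. On the log2 scale the difference was −0.74 ± 0.36 (SE), ranging from −1.01 without WT mouse 1 to −0.34 without WT mouse 3. Fgg shares 115 exonic bases with a long noncoding RNA on the opposite strand, Gm30097, which had 25 to 133 counts per mouse, and whether counting used the strand is not given in the sources used here. Of the other fibrinogen chains, looked up after the values were seen, Fga had 0 counts in all mice. Fgb measured 10.5, 78.3 and 22.9 CPM in WT and 8.96, 37.4 and 8.56 CPM in IL-21isoTg mice.

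Liver is the main source of most of these proteins, and 4 of the 8 hepatocyte markers (Alb, Apoa2, Fabp1 and Ahsg) had 0 counts in all 6 mice. Of the rest, Ttr measured 3.06, 1.58 and 7.05 CPM in WT and 23.7, 1.49 and 21.1 CPM in IL-21isoTg mice. Serpinc1 measured 1.76, 1.77 and 1.93 CPM in WT and 1.99, 0.78 and 1.77 CPM in IL-21isoTg mice. Apoa1 and Apoc3 had 0 to 2 counts per mouse. The 8 markers summed to 3.41 to 8.98 CPM in WT and 2.3 to 25.7 CPM in IL-21isoTg mice, which overlapped. Their part in the levels above was not tested.

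**Figure D4:**
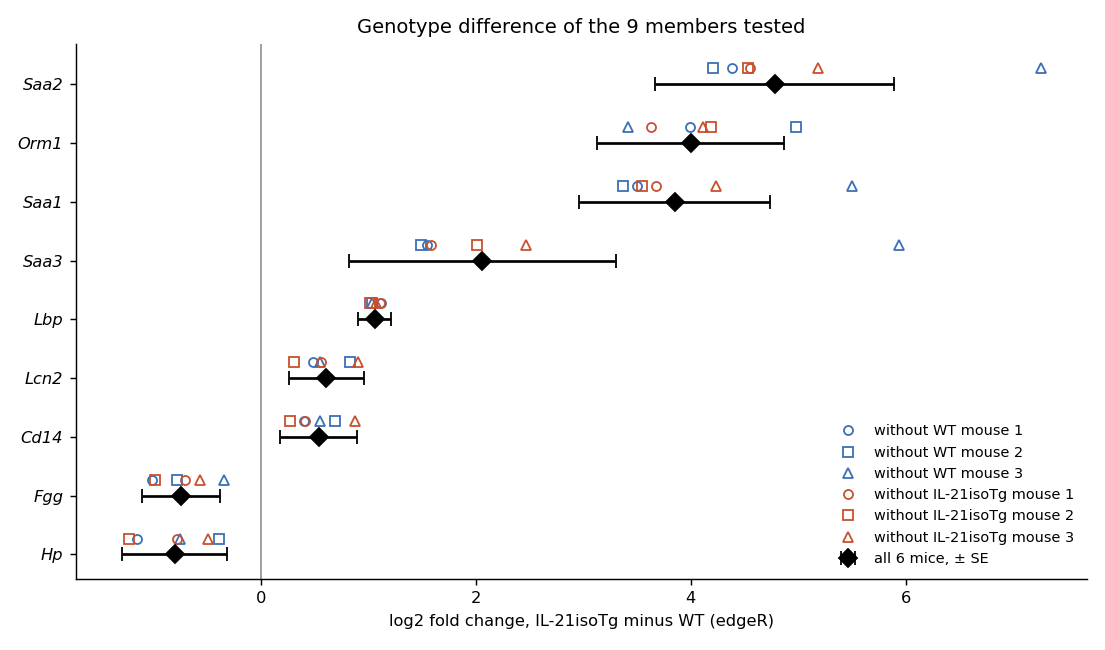
Log2 fold change of IL-21isoTg over WT from edgeR for the 9 genes tested (black diamonds, bars ± SE), with the same value after leaving out each of the 6 mice (open symbols). Lbp stays between 1.02 and 1.12, while Saa1, Saa2 and Saa3 reach 5.50, 7.26 and 5.94 without WT mouse 3, and no gene changes sign.

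The other genes of the response were read from lists drawn up with earlier results of these data known, and 0 genes of any list had an adjusted p under 0.05. Across all 17165 genes tested, 5.54% were higher and 6.54% lower without overlap (12.1% in all). These shares stand beside the counts of every list below, and nothing is read from those counts. Of 19 other acute-phase proteins, 11 could be tested and 4 had no counts. The median log2 fold change of the 11 was 0.79, with 9 positive and 2 negative, and 5 were higher without overlap. Among these were Lrg1, a leucine-rich glycoprotein (37.6 ± 10.3 against 85.1 ± 30.7 CPM, SD, n = 3), and the protease inhibitor Serpina3n (17.4 ± 5.37 against 30 ± 3.45 CPM). The other 3 were the pentraxin Ptx3 (39.7 against 61.3 CPM), the metal-binding Mt2 (396 against 677 CPM) and the iron hormone Hamp (0.427 against 1 CPM). C3, the central complement component and the most abundant of the list, had 615 ± 169 against 564 ± 204 CPM, and Mt1 had 402 ± 99.1 against 725 ± 278 CPM, both with overlap.

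Of 18 genes of the LPS pathway beyond Lbp and Cd14, 15 were tested, 10 with a positive and 5 with a negative log2 fold change, and the median was 0.14. Ly96, the partner that lets Tlr4 bind LPS, was higher without overlap (1.81 ± 0.362 against 3.07 ± 0.436 CPM), and the kinase Irak4 was lower without overlap (22.1 ± 0.933 against 18.2 ± 2.67 CPM). Tlr4 itself, looked up after the values were seen, measured 21.9, 18.1 and 17.7 CPM in WT and 18.2, 18.4 and 13.1 CPM in IL-21isoTg mice, with overlap. The most abundant genes were the NF-kB inhibitors Nfkbia (891 ± 142 against 844 ± 87.4 CPM) and Tnfaip3 (278 ± 32.7 against 345 ± 62.5 CPM) and the receptor Tlr2 (71.7 ± 49.5 against 110 ± 30.6 CPM), which overlapped.

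Among the cytokines, receptors and transcription factors that drive acute-phase genes, 19 of 22 were tested, 9 with a positive and 10 with a negative log2 fold change and a median of −0.03. Only Il6ra, the interleukin-6 receptor chain, did not overlap, at 27.7 ± 5.9 CPM in WT and 40.8 ± 0.976 CPM in IL-21isoTg mice, a log2 fold change of 0.56 with an edgeR adjusted p of 0.809. The NF-kB cofactor Nfkbiz (546 ± 84.1 against 504 ± 79.3 CPM), the signalling inhibitor Socs3 (479 ± 277 against 514 ± 215 CPM) and the cytokine Lif (454 ± 167 against 446 ± 190 CPM) were the most abundant, and overlapped. Cebpb, a C/EBP factor looked up after the values were seen, measured 287, 310 and 315 CPM in WT and 455, 476 and 296 CPM in IL-21isoTg mice, and IL-21isoTg mouse 3 lay inside the WT range, as it did for Lcn2.

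Of 16 other antimicrobial proteins 12 were tested, 6 in each direction, with a median of 0.19. Slpi, a secreted inhibitor of leukocyte proteases, measured 32.7, 37.7 and 33.8 CPM in WT and 82.5, 78.7 and 69.3 CPM in IL-21isoTg mice. Like Lbp it had tight groups that did not overlap, with a log2 fold change of 1.15 ± 0.15 (SE) and an edgeR adjusted p of 0.168. Xdh, the xanthine oxidoreductase of the milk fat globule, also did not overlap, at 91.5 ± 40 against 337 ± 50 CPM (adjusted p = 0.412, edgeR). The most abundant were lactoferrin (Ltf, 758 ± 712 against 1456 ± 804 CPM), lactoperoxidase (Lpo, 489 ± 272 against 1030 ± 833 CPM) and the polymeric immunoglobulin receptor (Pigr, 239 ± 134 against 677 ± 771 CPM), all with overlapping groups. Lpo and Pigr were highest in IL-21isoTg mouse 3, the mouse with the most salivary gland RNA.

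**Figure D5:**
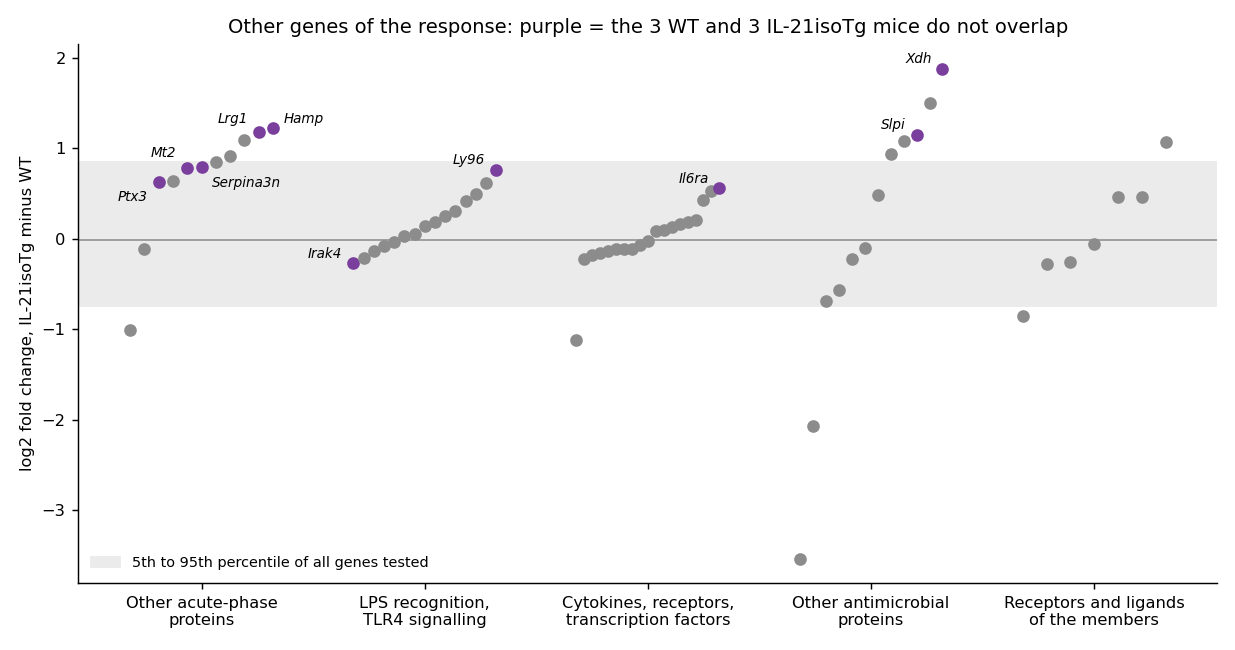
Log2 fold change of IL-21isoTg over WT for the tested genes of 5 lists, 1 point per gene, with genes whose 3 WT and 3 IL-21isoTg mice do not overlap in purple and the 5th to 95th percentile of all genes tested in grey. The other acute-phase proteins lie mostly above 0 (median 0.79, 5 of 11 higher without overlap beside 5.54% of all genes tested). The genes of LPS recognition and of cytokine signalling lie around 0 (medians 0.14 and −0.03).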

How the data were processed

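Poly(A) RNA from MECs of 6 mice was sequenced as 150-base paired reads from a directional library kit. The authors deposited raw read counts per gene, 1 column per mouse, and per the labels the processing notes name HISAT2 2.1.0, featureCounts 1.6.3, DESeq2 1.24.0 and build mm10, while the annotation and strand setting are not given in the sources used here. Their size-factor-scaled counts and their table of fold changes and p-values were not used here.

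Counts were tested with edgeR 4.0.16 in R 4.3.3 (filterByExpr with a minimum count of 10 and total of 15, TMM, robust quasi-likelihood test, Benjamini-Hochberg adjustment over 17165 genes, threshold 0.05). An exact permutation test of 3 against 3 mice cannot go below p = 0.1, so none was run for single genes. The 10 genes and the lists were chosen with earlier results of these data known. All 10 are named, and in other lists values are given for the 3 genes with the highest mean CPM and those whose groups do not overlap, with exceptions stated. Mice are separate animals, and each pair of libraries within a genotype differed by more than sampling noise. Totals ran from 15902886 to 25719244 counts, so that 3 counts corresponded to 0.111 to 0.279 CPM. Alternatives were DESeq2 size factors, counts without salivary gland genes, no filter, at least 10 counts in every mouse, DESeq2 1.42.0, limma-voom (limma 3.58.1), a replicate block and leaving out each mouse. Of the gene identifiers, 99.4% matched GENCODE M21. On simulated data with a log2 difference of 3 put into 200 genes for this comparison (16764 genes tested), edgeR recovered 93.5% with 5.56% of its calls false, and DESeq2 96% with 20.7% false. The simulated counts varied independently between genes, without shared variation such as that of the salivary gland RNA. These shares check the fits and do not give the power in the real data.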

Additional observations from a re-analysis of the deposited data

How the results depend on the processing

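The 9 genes kept the sign of their log2 fold change in all 114 values obtained under the alternative fits, and 111 of these also kept their side of the threshold. The calls did change. Without the filter on low counts edgeR called 14 of 28839 genes (0.0485%) higher, of which 1 was one of the 10 (Lbp, adjusted p = 0.0444), and 0 lower. DESeq2 called 72 genes higher and 9 lower, together 0.472% of 17165. These included 2 of the 10, Lbp (adjusted p = 3.15e-08) and Orm1 (adjusted p = 0.000628). Over all alternatives the adjusted p reached 0.993 for both. Leaving out each mouse in turn gave 0 to 6 genes called higher, the 6 without WT mouse 3, and 0 lower, with 0 of the 10 called. The median log2 fold change of the tested genes was 1.02 to 1.12 with a mouse left out and 0.58 to 1.56 under the other settings, where the lower end came from requiring 10 counts in every mouse, which removes the scarcest genes. Single mice moved the fold change by over 1.5 times for Saa1, Saa2 and Saa3 (log2 values of 5.50, 7.26 and 5.94 without WT mouse 3) and for Orm1 (4.98 without WT mouse 2). The method did so too, with limma-voom giving 4.48, 6.52 and 3.76 for Saa1, Saa2 and Saa3 and the replicate block 5.44 and 3.22 for Saa2 and Saa3. Without WT mouse 1, Cd14, Lcn2, Hp and Fgg stood at 0.40, 0.49, −1.15 and −1.01. The labels do not say whether mice with the same replicate number were paired. Deviations from the group means correlated at −0.224, 0.0677 and −0.0619 for same-numbered mice and at −0.226 to 0.233 for the others. With 3 mice per genotype this cannot exclude a pairing. With the replicate block 0 genes were called and the median was 1.06. Depth limits Saa3, Orm1 and Orm2, whose WT counts were 0 to 27, and 3 mice per genotype limit every comparison.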

Other observations

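Receptors and ligands of the 10 proteins, together with genes that handle heme, were read as a further list, and 7 of its 10 genes were tested. Their median log2 fold change was −0.06, with 3 positive and 4 negative, 0 had an adjusted p under 0.05 in edgeR's test or an unadjusted p under 0.05, and 0 had groups without overlap. The most abundant were Lrp1, a scavenger receptor that clears heme-bound hemopexin (173 ± 46.9 CPM in WT against 238 ± 32.2 CPM in IL-21isoTg mice, SD, n = 3), and Scarb1, a lipoprotein receptor that also binds serum amyloid A (52.5 ± 11.6 against 72 ± 23.3 CPM). Hmox1, which breaks down heme, had 29.9 ± 13.1 against 63 ± 45.4 CPM, with IL-21isoTg mouse 3 highest at 115 CPM. Fpr2, a receptor for serum amyloid A on leukocytes, had 0 to 2 counts per mouse, and Cd163, the haptoglobin-hemoglobin receptor of macrophages, had 5 to 56 counts; both were looked up after their values were seen.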
